A study of Mus musculus with 15 samples.

Results

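The 9 genes described here encode the machinery that makes, reads and removes linear ubiquitin chains: *Otulin*, the LUBAC subunits *Rnf31*, *Rbck1* and *Sharpin*, the deubiquitinase gene *Cyld* with its adaptor gene *Spata2*, the inhibitors *Tnfaip3* and *Tnip1*, and *Ikbkg*. They were taken by gene symbol from a table of 55487 gene rows, and each of the 9 symbols had a single row. Their transcripts were measured by QuantSeq 3′ mRNA sequencing, in which each molecule is read near its polyadenylated end, in bulk skin of 3-week-old mice. The libraries formed 3 groups of 5. Skin labelled lesional and skin labelled non-lesional came from *Otulin* fl/fl *K14-Cre* mice (OTULIN E-KO), in which the keratin 14 promoter drives Cre recombinase in keratinocytes. WT skin came from littermates that carried the same loxP-flanked *Otulin* alleles and no Cre, so that every group had floxed alleles, and all mice were on a C57BL/6 background. Bulk skin also holds fibroblasts, muscle, fat and immune cells in which *K14-Cre* is not active, and fewer cells of a type and less RNA per cell cannot be told apart in such samples. Whether a mouse gave both a lesional and a non-lesional sample is not stated.

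Linear ubiquitin chains are joined head to tail through the first methionine of ubiquitin, and they are assembled by LUBAC, in which HOIP (*Rnf31*) is the catalytic ligase and HOIL-1 (*Rbck1*) and SHARPIN hold the complex together. OTULIN cleaves only this chain type, whereas CYLD, brought to HOIP by SPATA2, cleaves linear and lysine 63-linked chains. The chains are read by NEMO (*Ikbkg*), the regulatory subunit of the IκB kinase complex, and by the ubiquitin-binding inhibitors A20 (*Tnfaip3*) and ABIN1 (*Tnip1*), and at the TNF receptor they hold back cell death while NF-κB is activated. The skin is known to depend on this balance, since mice without functional SHARPIN develop chronic dermatitis.

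Several of these genes are known targets of the pathways they regulate, and the promoter stretches that hold a recognisable element are therefore shown first. They were read from the RefSeq windows of GRCm38.p6, which covered 13 start sites of 8 of the genes, and *Sharpin* had no entry. The 250 bases before each start were searched on both strands for the core of the interferon-stimulated response element (ISRE), GAAA followed by any 2 bases and a further GAAA, and for the 10-base NF-κB consensus. Capitals mark the match, and positions are counted from the annotated start.
Rbck1, ISRE core at positions -21 to -12, chr2:152332427-152332456, minus strand: ggactgccacTTTCACTTTCtcttccgggg
Cyld, NF-κB consensus at positions -155 to -146, chr8:88696863-88696892, plus strand: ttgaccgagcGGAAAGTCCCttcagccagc
Tnfaip3, NF-κB consensus at positions -125 to -116, chr10:19015516-19015545, minus strand: gactcacgcgGGGACACCCCggggcgggac
Tnfaip3, NF-κB consensus at positions -12 to -3, chr10:19015403-19015432, minus strand: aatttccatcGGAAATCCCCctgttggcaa
Tnip1, 3 overlapping NF-κB matches at positions -58 to -47, chr11:54962978-54963007, minus strand: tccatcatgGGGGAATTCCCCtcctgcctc
Among 32851 mouse windows of the same length, 978 (2.98%) held the ISRE core and 1281 (3.9%) held the NF-κB consensus, against 1 and 3 of the 13 windows of these genes. The *Rbck1* element lay before 1 of its 2 annotated starts. These matches describe the letters of the reference genome, and binding was not measured.

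The libraries held 1962604 to 2567138 counts, and levels are given as CPM, each count scaled to a common library size after TMM normalisation. Since each transcript gives reads from its 3′ end, levels of different genes were compared without a length correction. All 8 listed keratinocyte markers, 5 fibroblast markers and 5 skeletal muscle markers were detected. Of 6 neutrophil markers 4 were detected and *Ly6g* and *Mpo* were at 0 in every library. Lesional replicates 2 and 11 stood apart from the other 13 libraries. The summed level of the 6 markers of inflamed, hyperplastic epidermis was 12802 and 32860 CPM in these libraries and 247 to 1319 CPM in the others. The neutrophil list shares *S100a8* and *S100a9* with the list of inflamed epidermis, and its other detected genes, *Retnlg* and *Cxcr2*, reached at most 11.6 and 5.57 CPM in any library. The summed neutrophil list was 3024 and 5184 CPM in lesional replicates 2 and 11, mostly from the shared genes, and 1.70 to 221 CPM in the others. *Krt6b*, a keratin of hyperproliferative epidermis, stood at 3569 and 8822 CPM in them, and lay between 0.859 and 17.3 CPM in all other libraries except non-lesional replicate 3, which had 223 CPM. The summed muscle markers were 11129 and 2665 CPM in lesional replicates 2 and 11, below the lowest WT value of 12834 CPM. The summed keratinocyte markers were higher there than in the other 13 libraries, at 12041 and 15861 CPM against 7932 to 11886 CPM, and the 4 adipocyte markers lower, at 921 and 824 CPM against 970 to 2136 CPM. Of these keratinocyte markers, *Krt14* stood at 3167 and 5993 CPM in lesional replicates 2 and 11 and at 653 to 1473 CPM in the others. The keratinocyte markers were not summed without *Krt14*. Fibroblast markers were lowest in lesional replicate 11, at 16433 CPM, and within the range of the others in replicate 2, at 27149 CPM. Differences of the members that these libraries move are given with and without them, and the part of other cell types in them was not tested.

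No difference between groups passed a test for any of the 9 transcripts, and the values of the groups overlapped for each of them. For *Otulin* itself, fold changes relative to WT were 1.13 in non-lesional and 1.07 in lesional libraries, with 95% intervals that together spanned 0.774 to 1.52. Of the 7 genes that passed the filter on low counts, *Rnf31* had the widest differences, 1.44-fold higher in lesional than in non-lesional and 1.32-fold higher than in WT libraries, followed by *Ikbkg*, 0.765-fold in non-lesional relative to WT libraries, and the 95% intervals of these differences included no change. In lesional replicates 2 and 11, *Rbck1* and *Tnip1* reached their highest and *Sharpin* its lowest levels, whereas *Otulin*, *Cyld* and *Spata2* stayed within the range of the other libraries.

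The groups were compared pairwise with edgeR's quasi-likelihood F-test over all genes, with Benjamini-Hochberg adjustment. Of the 9 members, 7 passed the filter on low counts in each comparison, and *Spata2* and *Tnfaip3* did not. With edgeR, 0 members had an adjusted p under 0.05 in any comparison, against 0 of 13021 genes (0%) between non-lesional and WT, 0 of 12918 (0%) between lesional and WT, and 0 of 12864 (0%) between lesional and non-lesional libraries. An unadjusted p under 0.05 was reached by 0 members, where 3.16%, 4.81% and 4.22% of all genes tested reached it in these 3 comparisons. DESeq2 and limma's voomWithQualityWeights also gave 0 members at either threshold. The levels of 2 groups were free of overlap for 0 of the 9 members, and for 0.66%, 0.689% and 0.622% of all genes tested. The median log2 fold change of the 7 members tested was -0.0017 between non-lesional and WT, 0.10 between lesional and WT, and 0.28 between lesional and non-lesional libraries, where the medians over all genes were -0.0027, -0.0034 and 0.0031. Without lesional replicates 2 and 11 the latter 2 medians of the members were 0.044 and 0.052. The comparisons share groups, so that the same 5 lesional libraries enter both of the latter.

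**Figure D1:**
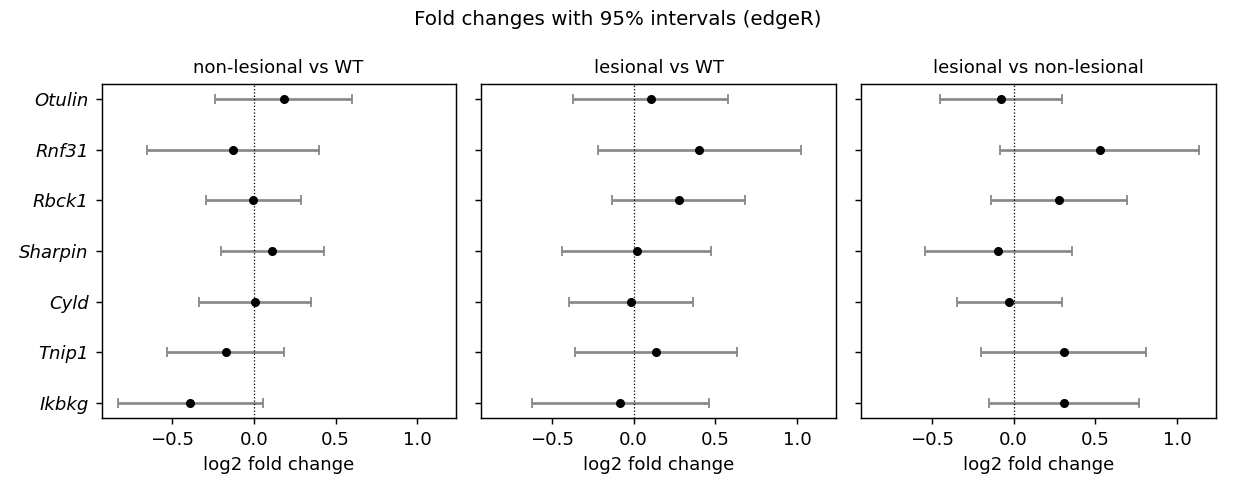
Log2 fold changes of the 7 genes that passed the filter (points) with 95% intervals (bars) in the 3 pairwise comparisons of 5 libraries against 5, from edgeR. Every interval includes 0, and the point of *Rnf31* between lesional and non-lesional libraries, at 0.53, lies farthest from it.

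*Otulin* (ENSMUSG00000046034), which encodes the only deubiquitinase specific to linear chains, is a minus-strand gene of chromosome 15 (GRCm38, 27542635 to 27630693). In WT replicates 1, 4, 7, 10 and 13 it was measured at 23.2, 28.3, 28.5, 12.4 and 23.2 CPM. The non-lesional replicates 3, 6, 9, 12 and 15 had 31.1, 21.5, 28.7, 22.3 and 27.4 CPM, and the lesional replicates 2, 5, 8, 11 and 14 had 27.5, 19.2, 25.9, 24.3 and 27.0 CPM. The 3 groups overlapped throughout, and the lowest of the 15 values belonged to a WT library, replicate 10. Non-lesional libraries differed from WT by a log2 fold change of 0.18 ± 0.20 (standard error), with a 95% interval of 0.848-fold to 1.52-fold. For lesional libraries the difference was 0.10 ± 0.22, with an interval of 0.774-fold to 1.49-fold. Between lesional and non-lesional libraries the fold change was 0.948, with an interval of 0.733 to 1.23. Without WT replicate 10 the log2 fold changes against WT were 0.026 and -0.052. Without lesional replicates 2 and 11, the value between lesional and WT libraries was 0.056 (standard error 0.26).

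These counts cannot show whether the floxed *Otulin* alleles were recombined. Reads fall at the 3′ end of the transcript, the sources used here do not say which exons the loxP sites flank, and transcripts from cells without Cre are counted too. GENCODE release vM21 has 2 protein-coding transcripts of the gene. ENSMUST00000059662.7 has 7 exons and ends at 27605919 with a last exon of 543 bases, whereas the RefSeq model of the gene ends at 27597055, 8864 bases further downstream. The other, ENSMUST00000228179.1, has 2 exons and ends beyond the RefSeq end, at 27542635, with a last exon of 202 bases. Reads from the RefSeq end are counted for *Otulin* only if the authors' annotation covered it, and its release is not given in the sources used here. For *Ikbkg* the RefSeq model also runs 2938 bases past the GENCODE end, and for the other 7 members the ends differed by 19 bases or less.

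**Figure D2:**
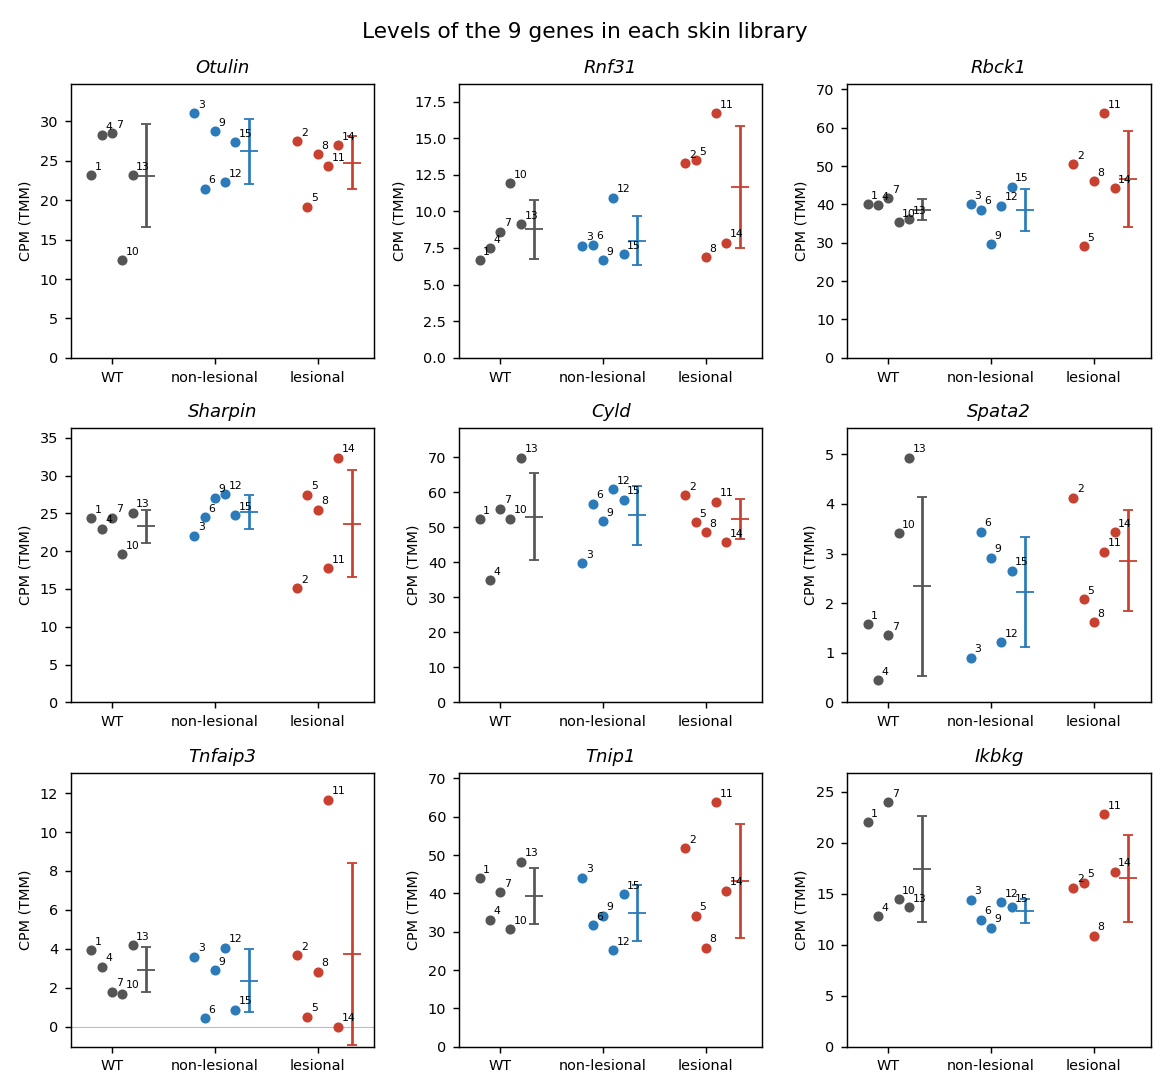
Level of each of the 9 genes in CPM (linear axis) in every WT, non-lesional and lesional skin library, with replicate numbers beside the points. The horizontal mark and bar give the mean and SD of each group of 5, and all groups overlap for all 9 genes.

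Of the LUBAC genes, *Rnf31* (ENSMUSG00000047098), which encodes the catalytic subunit HOIP, had the lowest level, with 16 to 33 counts per library. Its level was 6.68, 7.51, 8.60, 11.9 and 9.11 CPM in the WT replicates and 7.65, 7.73, 6.66, 10.9 and 7.07 CPM in the non-lesional replicates. In lesional replicates 2, 5, 8, 11 and 14 it was 13.3, 13.5, 6.87, 16.7 and 7.85 CPM. Thus 3 lesional libraries lay above every WT and non-lesional library, and the other two lay among them. The log2 fold change between lesional and non-lesional libraries was 0.53 (standard error 0.28, 95% interval 0.944-fold to 2.20-fold), with an adjusted p of 0.973 from edgeR and a two-sided exact permutation p of 0.0952. Against WT, the log2 fold change was 0.40 (standard error 0.29) in lesional and -0.12 (standard error 0.25) in non-lesional libraries. When lesional replicates 2 and 11 were left out, the value between lesional and non-lesional libraries was 0.21 (standard error 0.32) and that between lesional and WT libraries was 0.080 (standard error 0.32).

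The 3′ end of *Rnf31* overlaps the first annotated bases of *Irf9*, a type I interferon-inducible transcription factor gene, for 123 exonic bases on the same strand (chromosome 14, 55603571 to 55603693), 6337 bases before the 3′ end of *Irf9*. The counting assigned a read to every gene whose exons it overlapped, so that reads in this stretch counted for both genes and strand would not separate them. *Irf9* stood at 166, 52.4, 75.6, 212 and 99.1 CPM in lesional replicates 2, 5, 8, 11 and 14, and at 39.4 to 61.3 CPM in WT libraries. In lesional replicates 2 and 11 both genes were high, whereas in lesional replicate 5 *Rnf31* was at 13.5 CPM while *Irf9* lay within its WT range. The part of shared reads in the *Rnf31* counts was not tested.

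**Figure D3:**
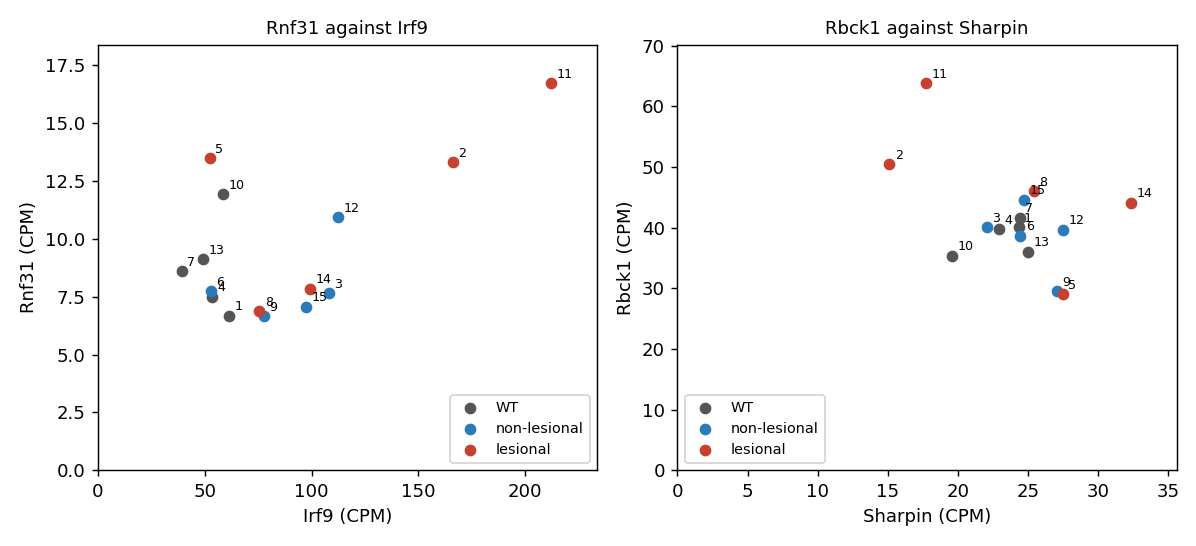
Levels of *Rnf31* against *Irf9* (left) and of *Rbck1* against *Sharpin* (right) in CPM, 1 point per library coloured by group and marked with its replicate number. Lesional replicates 2 and 11 have the highest *Irf9* levels, and they lie apart from the other 13 libraries in the right panel, with *Rbck1* at 50.4 and 63.8 CPM and *Sharpin* at 15.1 and 17.7 CPM.

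*Rbck1* (ENSMUSG00000027466), the gene of HOIL-1, was the most abundant LUBAC transcript. It was measured at 40.1, 39.7, 41.6, 35.4 and 36.1 CPM in WT and at 40.1, 38.7, 29.6, 39.7 and 44.6 CPM in non-lesional libraries. The lesional libraries had 50.4, 29.0, 46.1, 63.8 and 44.2 CPM, so that 4 of 5 lay above all WT libraries and the remaining one, replicate 5, below them all. The fitted difference between lesional and WT libraries was 0.28 on the log2 scale (standard error 0.19, 95% interval 0.914-fold to 1.61-fold), with an adjusted p of 0.926 from edgeR. It was 0.28 (standard error 0.19) against non-lesional libraries as well, and -0.0017 (standard error 0.14) between non-lesional and WT libraries. Without lesional replicates 2 and 11, the difference from WT was 0.044 (standard error 0.19) and that from non-lesional libraries 0.052 (standard error 0.19). The single ISRE core found among the promoters belonged to this gene.

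*Sharpin* (ENSMUSG00000022552), whose product stabilises LUBAC, was even in WT skin, with 24.3, 23.0, 24.4, 19.6 and 25.1 CPM. Non-lesional libraries had 22.1, 24.5, 27.1, 27.6 and 24.7 CPM, and lesional libraries 15.1, 27.5, 25.5, 17.7 and 32.4 CPM. The lesional values therefore spread to both sides, with 3 above and 2 below the whole WT range. The log2 fold changes were 0.019 (standard error 0.21) between lesional and WT, 0.11 (standard error 0.15) between non-lesional and WT, and -0.092 (standard error 0.21) between lesional and non-lesional libraries. When lesional replicates 2 and 11 were left out, the last of these turned to 0.17 (standard error 0.19), and the first was 0.28 (standard error 0.19). The 3′ end of *Cyc1* lies 780 bases from that of *Sharpin* on the other strand, and their exons do not overlap.

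*Cyld* (ENSMUSG00000036712), the second deubiquitinase acting on these chains, had the highest mean level of the 9 genes. It stood at 52.2, 34.9, 55.2, 52.4 and 69.9 CPM in WT, at 39.6, 56.7, 51.6, 60.8 and 57.9 CPM in non-lesional and at 59.1, 51.3, 48.5, 57.2 and 45.6 CPM in lesional libraries. Both the lowest and the highest value came from WT libraries, and no non-lesional or lesional library lay outside their range. Relative to WT, the log2 fold change of *Cyld* was 0.0094 (standard error 0.16, 95% interval 0.795-fold to 1.27-fold) for non-lesional skin and -0.016 (standard error 0.18, 95% interval 0.760-fold to 1.29-fold) for lesional skin, the latter being -0.13 without lesional replicates 2 and 11. *Spata2* (ENSMUSG00000047030), the adaptor that links CYLD to HOIP, was near the detection limit, with 1 to 13 counts per library and a mean of 2.34, 2.22 and 2.86 CPM in WT, non-lesional and lesional libraries. It did not pass the filter, and without a filter the log2 fold change in lesional relative to WT libraries was 0.25 (standard error 0.56). Its 5′ exon shares 129 bases with *Rnf114* on the opposite strand, 11626 bases from its 3′ end.

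*Tnfaip3* (ENSMUSG00000019850), which encodes A20 and is a classical NF-κB target, was scarce in most libraries, with 0 to 23 counts. Its level was 3.93, 3.09, 1.81, 1.70 and 4.18 CPM in WT and 3.60, 0.430, 2.91, 4.05 and 0.883 CPM in non-lesional libraries. In lesional libraries it was 3.67, 0.519, 2.83, 11.6 and 0 CPM. Replicate 11 alone held 23 of the 39 lesional counts, replicates 2 and 8 lay within the WT range, and replicates 5 and 14 lay below it. The 0 counts of replicate 14 allow up to 3 counts at that depth. *Tnfaip3* did not pass the filter. The log2 fold changes without a filter were 0.32 (standard error 0.72) in lesional and -0.31 (standard error 0.50) in non-lesional relative to WT libraries. Between lesional and non-lesional libraries the value was 0.63 (standard error 0.86), larger than that of *Rnf31* and with a wider error. At this depth small differences were not detectable.

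*Tnip1* (ENSMUSG00000020400), which encodes the A20-binding protein ABIN1, was about as abundant as *Rbck1*. Its level was 44.0, 33.1, 40.3, 30.7 and 48.2 CPM in WT and 44.1, 31.8, 34.1, 25.1 and 39.7 CPM in non-lesional libraries. The lesional libraries had 51.8, 34.2, 25.9, 63.8 and 40.7 CPM, and only replicates 2 and 11 lay above the WT range. The log2 fold change between lesional and non-lesional libraries was 0.31 (standard error 0.23, 95% interval 0.873-fold to 1.75-fold), and -0.063 without lesional replicates 2 and 11. Relative to WT it was 0.14 (standard error 0.23) in lesional libraries, which turned to -0.24 without these replicates, and -0.17 (standard error 0.17) in non-lesional libraries. The direction of the *Tnip1* difference thus depended on these libraries. *Gpx3* ends 408 bases from the 3′ end of *Tnip1* on the other strand, and their exons do not overlap.

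*Ikbkg* (ENSMUSG00000004221), the gene of the chain reader NEMO, lies on the X chromosome. It was measured at 22.0, 12.8, 24.0, 14.5 and 13.7 CPM in WT libraries. Non-lesional libraries had 14.4, 12.5, 11.7, 14.2 and 13.7 CPM, and lesional libraries had 15.6, 16.1, 10.9, 22.8 and 17.2 CPM. The WT libraries fell into 2 high and 3 low values, of which 2 low ones lay within the non-lesional range and the third, at 14.5 CPM, just above it. The log2 fold change between non-lesional and WT libraries was -0.39 (standard error 0.21, 95% interval 0.562-fold to 1.04-fold), with an unadjusted p of 0.0853, an adjusted p of 0.9998 from edgeR and a two-sided exact permutation p of 0.143. Between lesional and non-lesional libraries it was 0.31 (standard error 0.21), with 4 of 5 lesional libraries above all non-lesional ones and a two-sided exact permutation p of 0.127. Without lesional replicates 2 and 11 it was 0.14 (standard error 0.24), and the value between lesional and WT libraries, -0.080 (standard error 0.25), became -0.25 (standard error 0.28). An internal exon of *Ikbkg* shares 418 bases with *G6pdx* on the opposite strand, 25675 bases upstream of its 3′ end, and *G6pdx* stood at a mean of 31.9 CPM in lesional and 18.1 CPM in non-lesional libraries. The part of *G6pdx* reads in the *Ikbkg* counts was not tested.

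Ordered by mean level over the 15 libraries, the genes ran from *Cyld* (52.9 CPM) over *Rbck1* (41.3 CPM), *Tnip1* (39.2 CPM), *Otulin* (24.7 CPM), *Sharpin* (24.0 CPM), *Ikbkg* (15.7 CPM) and *Rnf31* (9.47 CPM) to *Tnfaip3* (3.02 CPM) and *Spata2* (2.47 CPM). The ranges of all neighbours in this order overlapped. The annotated 3′ ends of *Otulin* and *Ikbkg* differ between gene models, and that of *Rnf31* shares bases with *Irf9*, as given above. What this does to the order was not tested. *Rbck1* exceeded *Tnip1* in 8 of 15 libraries and *Otulin* exceeded *Sharpin* in 8 of 15, so that neither pair could be ordered, nor could *Tnfaip3* and *Spata2*, where the former was higher in 7 of 15. By contrast, *Ikbkg* was above *Rnf31* and *Rnf31* above *Tnfaip3* in 15 of 15 libraries. HOIP transcripts were thus the scarcest of LUBAC in every group, at a mean of 8.77, 8.01 and 11.6 CPM against 38.6, 38.5 and 46.7 CPM of *Rbck1* and 23.3, 25.2 and 23.6 CPM of *Sharpin* in WT, non-lesional and lesional libraries.

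The spread within groups was set against the spread that random counting gives at these counts. For *Otulin* the coefficient of variation was 28.3%, 15.9% and 13.5% in WT, non-lesional and lesional libraries, where counting gives 13.5%, 12.8% and 13.8%. For *Rnf31* it was 22.9%, 21.2% and 35.7% against 21.8%, 23.1% and 20.3% from counting. *Rbck1* varied by 7.04% in WT and 26.8% in lesional libraries, where counting gives 10.4% at the WT counts and slightly less at the lesional ones, and *Sharpin* by 9.42% and 30.1%, where counting gives 13.4% and 14.1%. The values were 18.7% in WT and 34.4% in lesional libraries for *Tnip1* (counting, 10.3% and 10.5%), 39.2% and 125% for *Tnfaip3* (counting, 37.3% and 35.8%), and 23.5% and 10.9% for *Cyld*. The coefficient of variation was thus larger in lesional than in WT libraries for 5 of the 9 genes, as it was for 69.6% of all 12918 genes tested. With lesional replicates 2 and 11 left out, a choice made after seeing the data, it was larger for 50.8% of all genes, and the lesional value over the other 3 libraries was 38.0% for *Rnf31*, 23.5% for *Rbck1*, 12.5% for *Sharpin*, 22.2% for *Tnip1* and 135% for *Tnfaip3*. These values are descriptions, and the difference in spread was not tested.

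**Figure D4:**
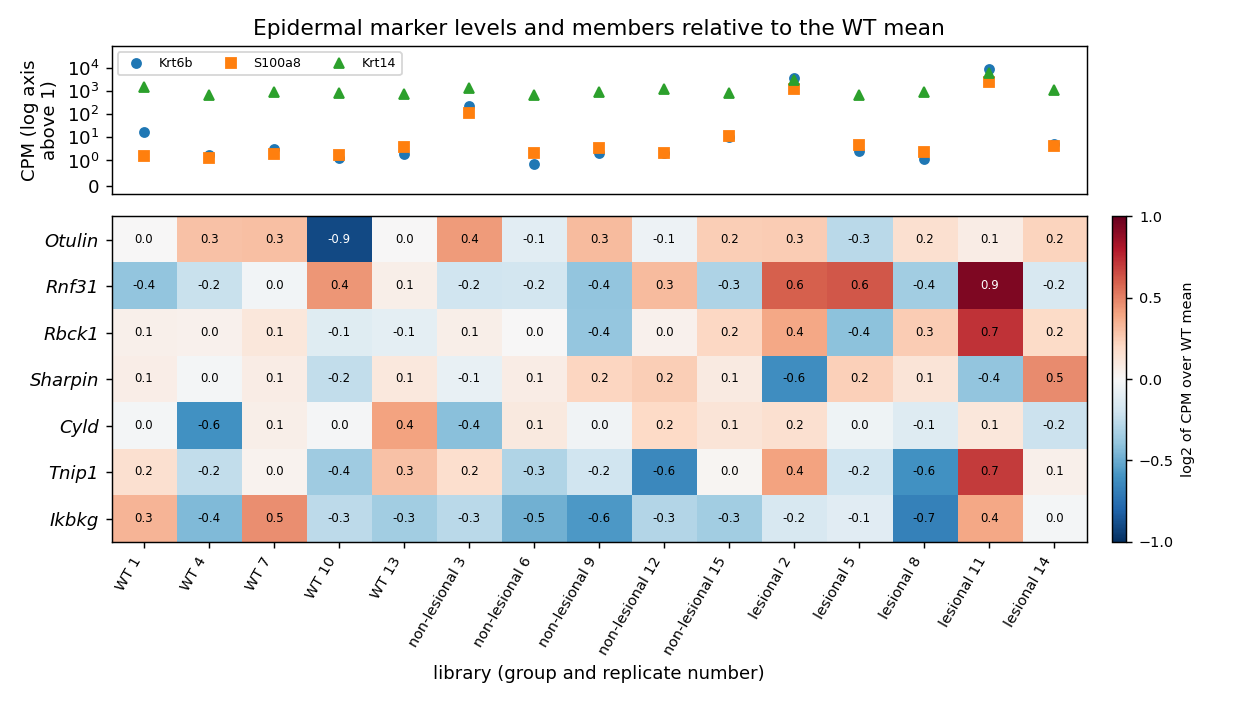
Upper panel, levels of *Krt6b*, *S100a8* and *Krt14* in CPM in each library (axis linear up to 1 and logarithmic above). Lower panel, log2 of the level of each gene over its WT mean, by library, for the 7 genes that passed the filter, in which *Rnf31*, *Rbck1* and *Tnip1* are red and *Sharpin* blue in lesional replicates 2 and 11, the libraries with the highest *Krt6b* levels.

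Other genes of the pathway were described by lists chosen with earlier results of these data known. Of 5 tested genes for ubiquitin, its E1 and E2 enzymes and paralogs of the members, 7 tested partners of A20 and ABIN proteins, 18 tested genes of TNF receptor complex I and the IκB kinases, 9 tested genes of the MyD88 and NOD2 arm, 4 tested cell death genes and 9 tested NF-κB targets, 0 passed the adjusted threshold between lesional and WT libraries with edgeR. At an unadjusted p under 0.05, *Traf2* and *Casp8* were higher and 0 were lower, against 4.81% of all genes. Between non-lesional and WT libraries *Traf2* alone passed it, against 3.16% of all genes, and between lesional and non-lesional libraries *Uba1* and *Tnip2* did, against 4.22%. *Casp8*, the initiator caspase that triggers apoptosis downstream of TNF receptor 1, was measured at 10.6, 10.6, 13.6, 13.6 and 13.3 CPM in WT and 15.6, 14.5, 17.0, 25.8 and 18.2 CPM in lesional libraries. Both groups were free of overlap, as were those of 0.689% of all genes tested in this comparison. The fitted log2 difference was 0.56 ± 0.21 (standard error), the adjusted p from edgeR was 0.926, and the two-sided exact permutation p was 0.00794, which is the lowest possible for 5 against 5. *Casp8* was named for its small p in this same comparison, so this permutation p is not that of a gene chosen beforehand. *Traf2*, which recruits LUBAC to the receptor through the cIAP ligases, had a log2 fold change of 0.88 (standard error 0.39) in lesional and 0.77 (standard error 0.33) in non-lesional relative to WT libraries. It had only 7 to 30 counts per library, and its levels overlapped with WT in both comparisons. The two-sided exact permutation p was 0.0714 for lesional and 0.0556 for non-lesional libraries.

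*Uba1*, the ubiquitin-activating enzyme, had a log2 fold change of 0.29 (standard error 0.13) and *Tnip2*, a relative of *Tnip1*, one of 0.43 (standard error 0.19) between lesional and non-lesional libraries, both with an adjusted p of 0.973 from edgeR. *Ube2l3*, the E2 enzyme with which HOIP works, and *Ubb* stood at 0.059 and 0.34 between lesional and WT libraries. For *Itch* and *Otud7b* the values were -0.25 and 0.093, for *Ikbkb* and *Azi2* -0.19 and 0.20, and for *Fadd* and *Cflar* 0.36 and -0.19. The receptors and adaptors *Myd88*, *Nod1* and *Nod2* stood at 0.67, 0.38 and 1.25, and the NF-κB targets *Icam1*, *Traf1* and *Nfkb1* at 0.38, -0.49 and 0.39. None of these passed the adjusted threshold. Without lesional replicates 2 and 11 *Azi2*, whose highest level was 63.3 CPM in lesional replicate 5, stood at 0.053 relative to WT. Several others rested on lesional replicates 2 and 11. Without these libraries *Myd88* stood at -0.067, *Nod2* at 0.12, *Icam1* at 0.072 and *Nfkb1* at -0.16 relative to WT. *Myd88*, the adaptor of the interleukin 1 and Toll-like receptors, was at 62.8 and 106 CPM in these libraries and at 28.5 to 33.9 CPM in the other lesional ones, and *Nod2* was at 21.8 CPM in replicate 11 and at 1.56 to 6.42 CPM elsewhere in the group. Without the same libraries *Uba1* and *Tnip2* stood at 0.14 and 0.35 relative to non-lesional skin, and *Casp8* and *Traf2* at 0.42 and 0.90 relative to WT, with no unadjusted p under 0.05 for these 4 genes.

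As a reference for a response in the same libraries, 10 type I interferon genes were listed, of which 8 could be tested against WT. Relative to WT, their median log2 fold change came to 1.40 for non-lesional and 2.30 for lesional skin, all 8 were above 0 in both comparisons at an unadjusted p under 0.05, and 0 passed the adjusted threshold with edgeR. *Irf9*, *Rtp4* and *Usp18* had log2 fold changes of 1.21 (standard error 0.33), 3.36 (standard error 0.88) and 2.20 (standard error 0.61) in lesional relative to WT libraries. Without lesional replicates 2 and 11 these were 0.52, 1.17 and 0.87, and the median of the 8 genes was 0.74. Between lesional and non-lesional libraries the median of 9 tested genes of the list was 1.15 and, without these replicates, -0.53 with 0 of 9 above 0. The list was known from earlier results to move in these data and is no independent evidence. The medians of the members, given above, lay between -0.0017 and 0.28.

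The genes whose pattern over the 15 libraries was most like that of *Otulin* were *Ube2n*, *Ptpa* and *Atp6v0d1*, measured as the mean absolute difference of standardised log2 levels, at 0.455, 0.475 and 0.499 SD, where the median of 10262 genes was 1.06 SD. For *Tnfaip3* they were *Kctd1*, *Nabp1* and *Sema4a*, at 0.368, 0.384 and 0.386 SD, where the median was 1.05 SD. The likeness is a description over 15 libraries that share their sequencing.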

How the data were processed

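Skin of 3-week-old mice was profiled with QuantSeq 3′ libraries. The authors clipped reads with cutadapt 2.10, removed QuantSeq-specific features, mapped them to GRCm38 and ERCC sequences with subread-align, retained matches of mapping quality 30 or more with SAMtools 1.7-2, and deposited raw counts from featureCounts 2.0.1, which required 20 bases of exon overlap and counted a read for every gene it overlapped. Versions are from the submitters' processing notes, and the annotation release is not given in the sources used here. The stated featureCounts call has no strand option, which by default counts both strands, so that opposite-strand overlaps are not separated. The methods are contradictory on whether samples with a low RNA integrity number were included, and integrity per sample was not analysed here. The authors also deposited CPM, which equal each count divided by its library total and scaled. They were checked and not tested. All 92 spike-in rows held 0 counts and were left out.

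For each pair of groups, edgeR 4.0.16 (R 4.3.3) was run on all genes with TMM, filterByExpr (minimum count 10), robust quasi-likelihood F-tests and Benjamini-Hochberg adjustment. Standard errors were derived from F and the log2 fold change, and intervals are 95% intervals from the same fit. For single genes, a two-sided exact permutation test over 252 regroupings of CPM was added. The scripts were tested on simulated counts. No 2 libraries agreed within sampling noise (smallest overdispersion between a pair 2.35). The study describes the samples of a group as 5 mice, the labels name no animals, and p-values measure the spread between these samples. PCR copies were not removed, so counting errors cover counting only.

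Members and lists were chosen with earlier results of these data known. Named are all 9 members, the 3 genes of each list with the smallest p between lesional and WT libraries, genes overlapping a member's exons or ending within 1 kb of its 3′ end, the 3 genes most like *Otulin* and *Tnfaip3* (mean CPM of at least 10, pseudocount 0.5), and *Krt6b*, *S100a8* and *Krt14*. Gene models are from GENCODE vM21 and promoters from RefSeq, both on GRCm38. Alternatives were DESeq2 1.42.0, limma 3.58.1 (voomWithQualityWeights), DESeq2 size factors, upper quartile normalisation, no filter, at least 10 counts in every library, all 15 libraries in 1 fit, and leaving out libraries. Leaving out lesional replicates 2 and 11 was planned for the member fold changes when the lesional libraries were already known to vary more. For the spread within groups and for other genes it was chosen after seeing the data.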

Additional observations from a re-analysis of the deposited data

Results flagged for a closer look

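Of 30 groups of 5 values that were checked for a library far from the rest, 1 held such a library: *Rnf31* in non-lesional replicate 12 stood at 10.9 CPM, where the other four non-lesional libraries had 6.66 to 7.73 CPM, a gap of 0.750 of the whole range against a critical value of 0.71. Chance gives about 1 such group in 20. The library had 27 *Rnf31* counts, and its *Irf9* level, 112 CPM, was the highest of the non-lesional group. Non-lesional replicates 3 and 15 had *Irf9* at 108 and 97.6 CPM with *Rnf31* at 7.65 and 7.07 CPM. The reads shared by the 3′ end of *Rnf31* and *Irf9* were not tested.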

How the results depend on the processing

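No member passed the adjusted threshold under any alternative, and 338 of the member fold changes kept their direction while 33 turned it. The number of all genes with an adjusted p under 0.05, which was 0 in each comparison, came to 1 (*Ifit1*) with DESeq2 and 18 without a filter between non-lesional and WT, where leaving out 1 replicate in turn gave 0 to 5, the most without non-lesional replicate 6, and to 14 with DESeq2 between lesional and WT. The median of the members between lesional and non-lesional libraries was 0.090 with voomWithQualityWeights and 0.052 without lesional replicates 2 and 11. Directions turned as follows: *Rbck1* between non-lesional and WT to 0.00041 with upper quartile normalisation, *Cyld* between lesional and WT to 0.011 and *Tnip1* there to -0.094 with voomWithQualityWeights, *Tnip1* to -0.24 there and to -0.063 against non-lesional libraries, and *Sharpin* to 0.17 against non-lesional libraries, without lesional replicates 2 and 11. Leaving out 1 replicate in turn moved the log2 fold changes that turned over these ranges. Between non-lesional and WT they were -0.27 to 0.010 for *Rnf31*, -0.059 to 0.081 for *Rbck1* and -0.11 to 0.13 for *Cyld*. Between lesional and WT they were -0.052 to 0.19 for *Otulin*, -0.12 to 0.15 for *Sharpin*, -0.13 to 0.10 for *Cyld*, -0.043 to 0.28 for *Tnip1* and -0.22 to 0.058 for *Ikbkg*. Between lesional and non-lesional they were -0.14 to 0.0032 for *Otulin*, -0.23 to 0.036 for *Sharpin* and -0.10 to 0.025 for *Cyld*. In 7 of these 30 fits a member had an unadjusted p under 0.05: *Rbck1* in 2 fits, both without lesional replicate 5, *Rnf31* in 3 fits and *Ikbkg* in 2 fits. This is 3.33% of the 210 member tests in these fits, where 2.37% to 7.64% of all genes were under the threshold. The fits without lesional replicates 2 and 11 held fewer libraries, and otherwise the cause was not tested. No label says which samples belong together, and the replicate numbers run on through the groups without repeating. Pairing is therefore unknown and was not modelled. With 29 to 69 *Otulin* counts per library, and fewer for *Rnf31*, *Spata2* and *Tnfaip3*, small differences were not detectable.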

Other observations

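The balance of both LUBAC accessory subunits was looked at after their values had been seen, as the number of *Rbck1* counts per *Sharpin* count within each library, a ratio that no normalisation of the library changes. It was 3.33 and 3.60 in lesional replicates 2 and 11, and between 1.06 and 1.82 in the other 13 libraries. Lesional replicate 5 had the lowest ratio of all libraries, so that the lesional group held both ends of the range. Over the groups, the mean log2 ratio was 0.73 ± 0.12 (SD, n = 5) in WT, 0.61 ± 0.30 in non-lesional and 0.99 ± 0.78 in lesional libraries. A two-sided exact permutation test gave p = 0.437 between lesional and WT and p = 0.349 between lesional and non-lesional libraries, and p = 0.508 between non-lesional and WT libraries, so that the groups were not separated.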
